A study of Homo sapiens with 8 samples.

Results

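Immediate early genes are switched on within minutes of a stimulus such as serum, a growth factor or synaptic activity, without new protein synthesis. Kinases of the ERK cascade phosphorylate partners of the serum response factor SRF, which binds CArG boxes in promoters, and calcium and cyclic AMP act through CREB; the proteins made are mostly transcription factors, RNA decay factors and phosphatases that shape what follows and shut the response off. In neurons the same genes mark recent activity, and in dividing cells they mark growth signals. A set of 33 such genes, named by symbol (the FOS, JUN, EGR, NR4A, IER, BTG and ZFP36 families, ATF3, MAFF, 4 KLF factors, ARC, NPAS4, DUSP1, DUSP2 and SRF itself), is described here. All 33 were found among the 52719 genes of the data, and 22 reached the mean of 1 TPM over all libraries that was needed for a test.

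The libraries came from SH-SY5Y, an established human neuroblastoma line with features of sympathetic neurons, grown in medium with foetal calf serum. Differentiated cells had been given 1 µM 9-cis retinoic acid, a ligand of the retinoic acid and retinoid X receptors, for 7 days (4 libraries, replicates 21 to 24), and undifferentiated cells carry no such treatment in the labels (4 libraries, replicates 17 to 20). No acute stimulus is recorded for either group, so the values are standing levels and not a time course of induction, and the treatment cannot be told apart from time in culture. A p-value here sets the difference between groups against the spread among libraries within groups. The labels do not say whether replicates are separate cultures, so that spread may be technical.

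Values are in TPM, a share of the transcripts of a library corrected for their length, which sums to 1000000 and keeps no depth, so counting intervals were not computed. Per library, 16265 to 17370 genes were at 1 TPM or above. Lane 7 held undifferentiated replicates 17 and 18, and lane 8 all other libraries. Across genes, which are not independent of each other, Pearson's r on the log2 scale was 0.951 to 0.97 between differentiated libraries and 0.972 to 0.974 between undifferentiated libraries, and differentiated replicate 22 was the least like its group. All 11 noradrenergic neuroblastoma markers were measured, and 9 of them fell. Their summed level was 1500 to 1760 TPM in differentiated and 2470 to 2570 TPM in undifferentiated cells. Of all 17077 genes tested, limma called 33.9% higher and 17.4% lower. Markers of mesenchymal-type neuroblastoma cells and fibroblasts summed to 1440 to 1550 TPM in differentiated and 525 to 576 TPM in undifferentiated cells. Of the 13 measured among 15, 8 rose and 1 fell, while COL1A2 stayed at 0.13 to 0.163 TPM in differentiated and 0.0995 to 0.167 TPM in undifferentiated libraries, and PRRX1 was listed at 0 in 6 of 8 libraries and at no more than 0.0121 TPM in the others. More cells of such a type and more RNA per cell cannot be told apart in bulk samples, and the part of these markers in the results below was not tested. Of the other marker lists, the Schwann, blood and epithelial ones rose only in S100B, in CD68 and in KRT18 and KRT8 (limma), with SOX10, FOXD3, HBB, KRT5 and KRT14 listed at 0, and of the 3 endothelial markers, CDH5 and VWF stayed under 1 TPM and PECAM1 was not analysed here.

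Most of the set stood higher in differentiated cells. limma called 19 of the 22 tested members (86.4%), against 51.3% of all 17077 genes tested. Of these, 16 rose (72.7%, against 33.9% of all genes) and 3 fell (13.6%, against 17.4%). A rise of 1 or more on the log2 scale was seen in 10 members, and in 8.84% of all genes. With quantile normalization, 13 members rose and 3 fell, beside 4173 and 5098 of all genes. The median log2 fold change was 0.95 in the tested members and 0.10 in all genes tested. FOS and ZFP36 averaged under 1 TPM in undifferentiated cells and were tested only because of their level in differentiated cells. Of the 11 members below the minimum, a limma fit without it called FOSL1, IER3 and KLF2 higher. FOSB, EGR2, EGR3, EGR4, KLF4, NR4A2, NR4A3 and NPAS4 were not called in that fit, which called 6446 of all genes higher and 3157 lower. No differentiated library overlapped the undifferentiated range for 15 tested members that were higher and 2 that were lower, against 32.3% and 17.3% of all genes tested. The summed level of the 33 genes was 345.9 ± 6.38 TPM in differentiated and 179.8 ± 4.75 TPM in undifferentiated cells (SD, n = 4 each).

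**Figure D1:**
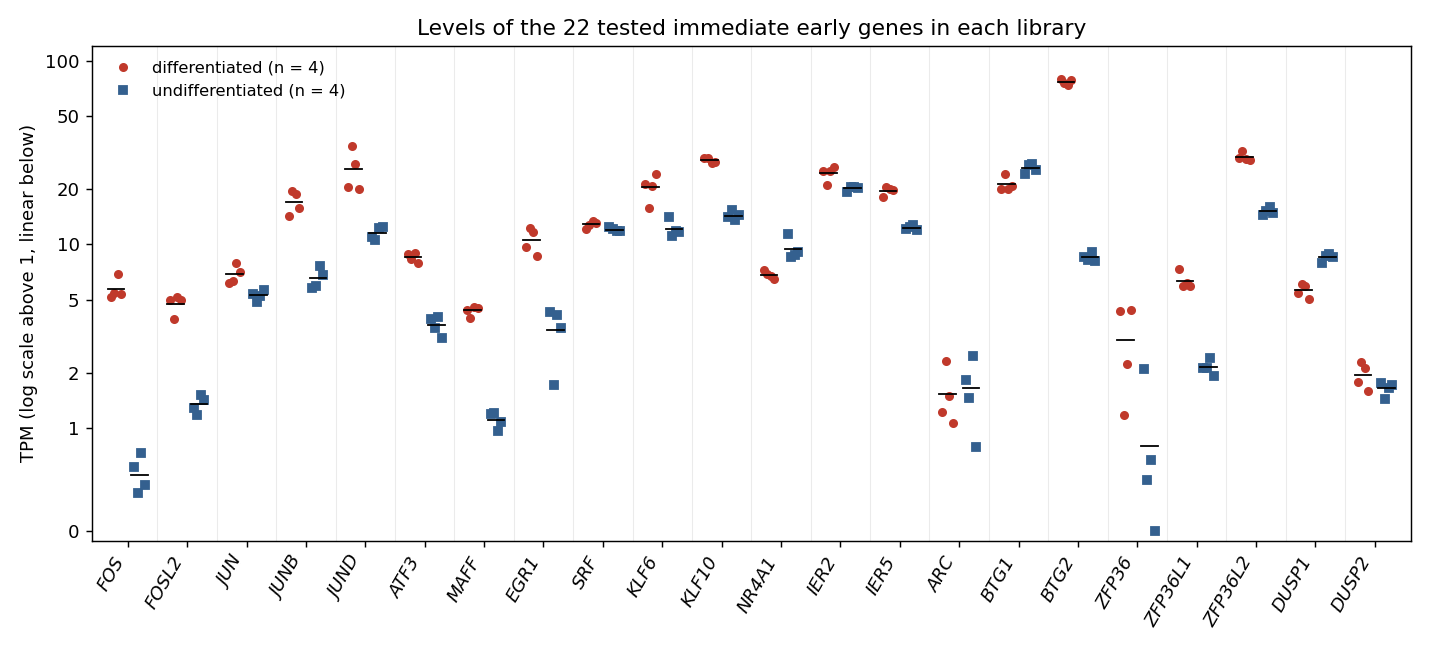
Level in TPM of each tested member in each library, with differentiated libraries as circles left of undifferentiated libraries as squares and a line at the mean of 4; the axis is logarithmic above 1 TPM and linear below. BTG2 stands at 73.8 to 79.2 TPM in differentiated and 8.15 to 9.09 TPM in undifferentiated libraries, and ZFP36 and ARC overlap between the groups.

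BTG2, an antiproliferative protein that recruits the CCR4-NOT deadenylase to messenger RNAs and is also a target of p53, had the largest log2 fold change of TPM + 1 in the set and was its most abundant member in differentiated cells. It measured 79.2, 75.3, 73.8 and 78.7 TPM in differentiated libraries, against 8.58, 8.27, 9.09 and 8.15 TPM in undifferentiated libraries. The groups were far apart and tight, with coefficients of variation of 3.41% in differentiated and 4.89% in undifferentiated cells. The ratio of the means was 9.01 and the log2 fold change of TPM + 1 was 3.03 ± 0.05 (SE; limma adjusted p = 4.85e-09), a value that 119 of the 17077 genes, BTG2 included, reached. Its coding transcript of 2712 bases held 67.3 ± 2.11 TPM in differentiated and 6.95 ± 0.281 TPM in undifferentiated cells. A transcript of 1275 bases annotated as a target of nonsense-mediated decay held 12.4% of the gene's TPM in differentiated and 18.4% in undifferentiated cells, a difference in share that limma did not call (adjusted p = 0.11). BTG1, its close relative, moved the other way. It stood at 20.1, 24.1, 20.0 and 20.9 TPM in differentiated and 24.1, 27.1, 27.3 and 25.5 TPM in undifferentiated libraries, where differentiated replicate 22 touched the range of undifferentiated cells (log2 fold change -0.28 ± 0.07, limma adjusted p = 0.0122). BTG2 thus held 78.3% ± 1.77 of the summed TPM of the pair in differentiated and 24.7% ± 1.21 in undifferentiated cells (SD, n = 4 each). The call of BTG1 was lost within lane 8 (log2 fold change -0.30, limma adjusted p = 0.0555), and LINC01619, which overlaps BTG1 on the same strand, averaged 2.36 TPM in differentiated and 5.29 TPM in undifferentiated cells. The part of that overlap in the BTG1 value was not tested.

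BTG2 lies on the plus strand of chromosome 1 (203305491 to 203309602 in GENCODE 29, GRCh38; ENSG00000159388). The stretch shown is from the 250 bases before its RefSeq start (chr1:203305332-203305391, plus strand, GRCh38.p14), since it holds the EGR element, the letters GCGNGGGCG read on both strands, at a pair of sites given in capitals.
BTG2: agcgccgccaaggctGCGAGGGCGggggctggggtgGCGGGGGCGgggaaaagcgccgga
The element can overlap a GC box (GGGCGG), and it occurs in 8.41% of the 35116 RefSeq promoter windows of the same length. Among the 34 windows available for 26 members it occurs in 7, those of BTG2, DUSP2, EGR1, KLF2, KLF4, KLF6 and SRF. DUSP2 holds a pair of sites as well. Of these members, BTG2, EGR1 and KLF6 rose, DUSP2 and SRF were not called, and KLF2 and KLF4 lay under the minimum for a test. A match is a description of the letters and not evidence of binding.

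The FOS family, which pairs with JUN proteins in the AP-1 transcription factor, was several times higher in differentiated cells while staying at low levels. FOS (ENSG00000170345, chromosome 14, 75278774 to 75282230, plus strand, GRCh38), the standard marker of recent stimulation, measured 5.16, 5.47, 6.95 and 5.39 TPM in differentiated libraries, against 0.626, 0.366, 0.760 and 0.445 TPM in undifferentiated libraries. No library came near the other group, the ratio of the means was 10.5, and the log2 fold change was 2.12 ± 0.13 (SE; limma adjusted p = 3.05e-06). The main coding transcript of 2158 bases carried this, at 4.58 ± 0.616 TPM in differentiated and 0.357 ± 0.145 TPM in undifferentiated cells. FOSL2 (FRA-2), a family member without a strong activation domain, was at 4.97, 3.92, 5.19 and 4.97 TPM in differentiated and 1.29, 1.18, 1.52 and 1.43 TPM in undifferentiated libraries (1.29 ± 0.10, limma adjusted p = 1.73e-05). FOSL1 (FRA-1) stayed under 1 TPM in all libraries, at 0.680 to 0.819 TPM in differentiated and 0.0603 to 0.221 TPM in undifferentiated ones. Fitted without the minimum, it was higher (log2 fold change 0.58, limma adjusted p = 0.000232). FOSB lay at 0.161 to 0.481 TPM in differentiated and 0.141 to 0.350 TPM in undifferentiated libraries, which overlap, and it shares sequence on the opposite strand with ERCC1 (52.2 TPM in differentiated and 49.5 TPM in undifferentiated cells). FOS made up 49.5% ± 3.85 of the family's TPM in differentiated and 23.4% ± 4.3 in undifferentiated cells.

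The JUN proteins are the partners with which FOS proteins bind DNA as AP-1. RNA of the JUN genes was more abundant than that of the FOS genes in both groups, and the JUN genes rose unequally. JUNB was at 14.2, 19.6, 18.9 and 15.8 TPM in differentiated and 5.84, 5.97, 7.64 and 6.83 TPM in undifferentiated libraries, with no overlap (log2 fold change 1.25 ± 0.12, limma adjusted p = 4.92e-05). JUND, the member that is least dependent on stimulation, was at 20.6, 34.3, 27.5 and 20.1 TPM in differentiated and 11, 10.6, 12.3 and 12.4 TPM in undifferentiated libraries (1.05 ± 0.16, limma adjusted p = 8.12e-04). Differentiated replicate 22 was the highest in both. JUN itself was only slightly higher, at 6.19, 6.32, 7.97 and 7.11 TPM in differentiated and 5.38, 4.86, 5.24 and 5.66 TPM in undifferentiated libraries (0.32 ± 0.09, limma adjusted p = 0.0161). Its call was lost with median-of-ratios scaling (0.23, limma adjusted p = 0.0828), quantile normalization (0.07, adjusted p = 0.607) within lane 8 (0.29, adjusted p = 0.126) and with lane as a covariate (0.29, adjusted p = 0.0927). The JUN share of the family's TPM was 14.2% ± 2.59 in differentiated and 22.6% ± 1.39 in undifferentiated cells. The family summed to 49.6 ± 9.16 TPM in differentiated and 23.5 ± 1.87 TPM in undifferentiated cells, and the FOS family to 11.6 ± 1.11 TPM and 2.31 ± 0.387 TPM in the same groups. JUNB overlaps HOOK2 on the opposite strand (36.1 TPM in differentiated and 28.3 TPM in undifferentiated cells), and whether the authors' counting used strand is not given in the sources used here.

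**Figure D2:**
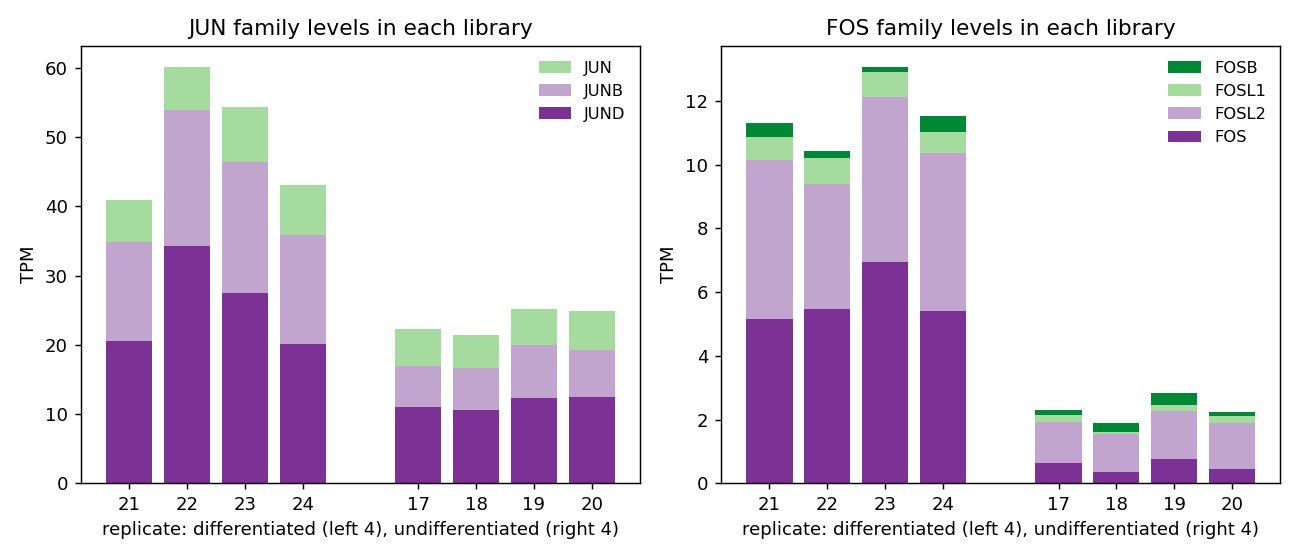
Stacked TPM of the JUN family (left) and the FOS family (right) in each library, differentiated replicates 21 to 24 left of undifferentiated replicates 17 to 20. The FOS family sums to 10.4 to 13.1 TPM in differentiated and 1.88 to 2.82 TPM in undifferentiated libraries, and FOS takes the larger part of that difference.

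Both other basic leucine zipper members rose. ATF3, a stress-induced factor that can pair with JUN, was at 8.88, 8.39, 9.00 and 7.96 TPM in differentiated and 3.95, 3.50, 4.04 and 3.12 TPM in undifferentiated libraries (1.04 ± 0.09, limma adjusted p = 2.01e-05). MAFF, a small MAF protein that lacks an activation domain, was at 4.43, 3.99, 4.59 and 4.53 TPM in differentiated and 1.19, 1.21, 0.971 and 1.08 TPM in undifferentiated libraries (1.35 ± 0.09, limma adjusted p = 4.92e-06). The groups of both genes were clear of each other. MAFF overlaps PLA2G6 on the opposite strand, which averaged 9.19 TPM in differentiated and 6.62 TPM in undifferentiated cells. Among 12 measured genes of a list of other AP-1 and small MAF partners, 9 were called higher and 1 lower (median 0.65). The shares of all genes were 33.9% and 17.4%. With median-of-ratios scaling or quantile normalization, 2 of the listed genes were called lower. JDP2, a repressor that dimerizes with JUN, rose to 10.4 ± 0.386 TPM in differentiated cells, against 1.62 ± 0.348 TPM in undifferentiated cells. BATF3 (3.38 ± 1.33 TPM in differentiated and 0.289 ± 0.221 TPM in undifferentiated cells) and MAFK (11.4 ± 1.19 and 3.03 ± 0.447 TPM in the same groups) followed.

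EGR1 (ENSG00000120738, chromosome 5, 138465490 to 138469315, plus strand, GRCh38), a zinc finger factor induced by SRF, was the only EGR gene above 1 TPM. It measured 9.73, 12.3, 11.6 and 8.69 TPM in differentiated libraries, against 4.32, 1.72, 4.14 and 3.52 TPM in undifferentiated libraries. The groups did not overlap, although undifferentiated replicate 18 was well under its group (log2 fold change 1.43 ± 0.22, limma adjusted p = 7.86e-04). EGR2, EGR3 and EGR4 stayed at no more than 0.294 TPM in any library, and EGR4 was listed at 0 in every differentiated library. Of the EGR corepressors, NAB2 rose to 14.7 ± 1.36 TPM in differentiated cells, against 6.898 ± 0.218 TPM in undifferentiated cells, and NAB1 fell to 51.8 ± 7.33 TPM, against 67.2 ± 1.901 TPM. Within lane 8 the call of NAB1 was lost (limma adjusted p = 0.0695).

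SRF, the factor after which the serum response is named, did not pass the test. It was at 12.2, 12.7, 13.4 and 13.1 TPM in differentiated and 12.4, 12.1, 11.8 and 11.8 TPM in undifferentiated libraries, which overlap (log2 fold change 0.09 ± 0.05, limma adjusted p = 0.195). The sign turned with median-of-ratios scaling (-0.02) and quantile normalization (-0.11). The promoter stretches of EGR1 (chr5:138465359-138465420, plus strand) and SRF (chr6:43171224-43171268, plus strand), both from RefSeq on GRCh38.p14, are shown because each holds a pair of CArG boxes, in capitals, while one gene rose and the other did not pass.
EGR1: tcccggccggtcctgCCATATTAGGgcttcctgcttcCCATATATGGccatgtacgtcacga
SRF: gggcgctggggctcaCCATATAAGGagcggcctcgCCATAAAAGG
The CArG box occurs in 1.16% of the 35116 promoter windows and in 3 of the 34 windows of members, in EGR1, EGR2 and SRF. The windows cover 250 bases before the start, and no match in a window says only that these letters are not there.

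Of 9 genes listed as SRF partners, 8 were measured, 2 rose and 1 fell (median 0.03), beside 33.9% and 17.4% of all genes. With quantile normalization 3 fell and the median was -0.19, and within lane 8 0 fell. MRTFA, an actin-regulated coactivator, rose to 8.29 ± 1.13 TPM in differentiated cells, against 3.795 ± 0.659 TPM in undifferentiated cells. ELK3, an ETS factor that binds beside SRF, rose to 53.7 ± 2.88 TPM, against 23.3 ± 0.808 TPM. SAP30, the listed gene that fell, encodes a SIN3 corepressor subunit and is not a known SRF partner. It fell to 56.7 ± 4.68 TPM, against 69.1 ± 2.92 TPM, a call that was lost within lane 8 (limma adjusted p = 0.0653). The cytoskeletal targets of SRF and its MRTF coactivators stood higher almost throughout. Of 15 measured among 18, limma called 14 higher and 0 lower (median 1.10). CCN1, a secreted matricellular protein, had a log2 fold change of 2.93 ± 0.10, the actin-binding calponin CNN2 2.09 ± 0.05 and smooth muscle actin ACTA2 1.996 ± 0.121 (limma adjusted p = 1.27e-07, 2.08e-08 and 3.43e-06). The gene that did not pass was CNN1, and MYL9 was listed at 0 in every library. CCN1, which is secreted and not cytoskeletal, was also counted among the other early response genes below, so both lists share its rise.

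**Figure D3:**
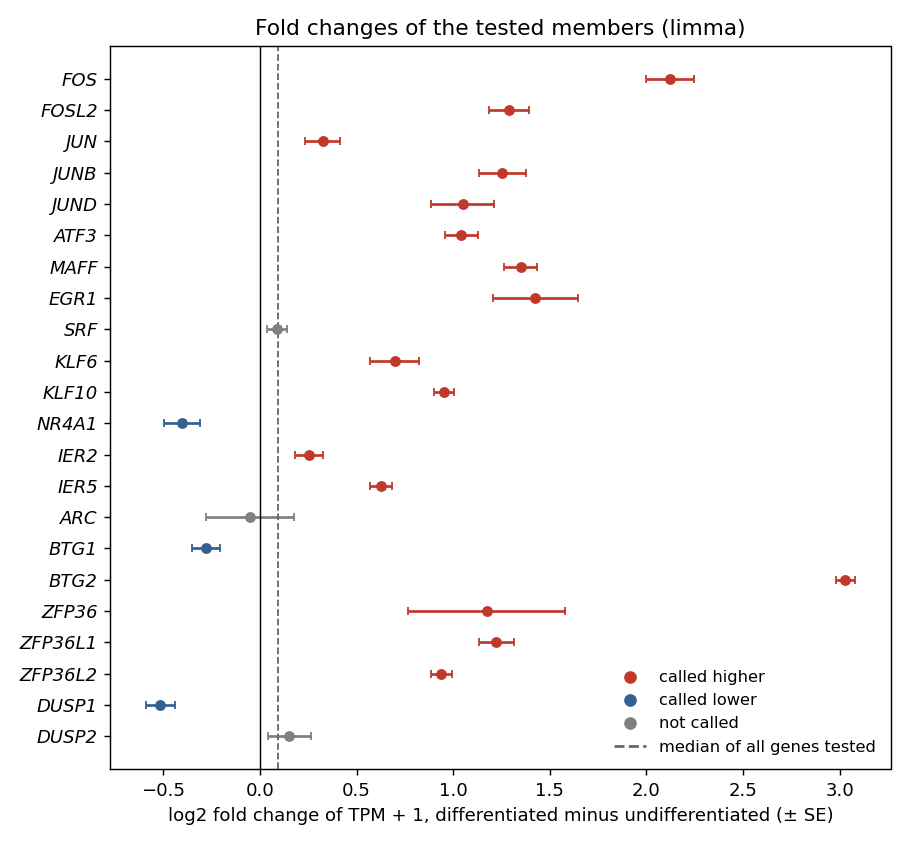
Log2 fold change of TPM + 1 of each tested member, differentiated minus undifferentiated, with its SE from limma, and a dashed line at the median of all genes tested (0.10). The 16 members that rose reach from IER2 (0.26) to BTG2 (3.03), and DUSP1, NR4A1 and BTG1 lie below 0.

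The KLF zinc finger factors split into a pair that was well expressed and a pair that was nearly absent. KLF10, a target of TGF-beta that restrains growth, was at 29.4, 29.6, 27.7 and 28.1 TPM in differentiated and 14.1, 15.4, 13.5 and 14.4 TPM in undifferentiated libraries (0.95 ± 0.05, limma adjusted p = 2.2e-06). KLF6 was at 21.3, 15.8, 20.8 and 24.1 TPM in differentiated and 14.0, 11.2, 11.8 and 11.7 TPM in undifferentiated libraries (0.70 ± 0.13, limma adjusted p = 0.00188). The groups were apart in both genes, with differentiated replicate 22 the lowest of its group for KLF6. KLF2 was at 0.139 to 0.337 TPM in differentiated libraries and at no more than 0.0396 TPM in undifferentiated ones, 2 of which are listed at 0; fitted without the minimum it was higher (limma adjusted p = 0.00572). KLF4 did not exceed 0.0301 TPM. Among 9 measured genes of the other KLF factors, 4 were called higher and 2 lower (median 0.23), beside 33.9% and 17.4% of all genes. Within lane 8 or with lane as a covariate, 1 of them was called lower. The largest changes were in KLF11 (0.98 ± 0.07), KLF13 (0.86 ± 0.07) and KLF15 (-0.61 ± 0.07).

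None of the NR4A orphan nuclear receptors and synaptic activity genes ARC and NPAS4 was called higher. NR4A1 (NUR77) was at 7.24, 6.91, 6.76 and 6.52 TPM in differentiated and 11.4, 8.56, 8.74 and 9.10 TPM in undifferentiated libraries. Every differentiated library was below every undifferentiated one, and replicate 17 was the highest (-0.40 ± 0.09, limma adjusted p = 0.00641). The call was lost with lane as a covariate (-0.34, limma adjusted p = 0.0516). A coding transcript of 2029 bases was listed at 0 in all differentiated libraries and at 0.220 to 1.37 TPM in undifferentiated ones. NR4A3 lay at 0.321 to 0.560 TPM in differentiated and 0.473 to 0.520 TPM in undifferentiated libraries, and NR4A2 at no more than 0.0370 TPM. NPAS4, a factor induced by calcium entry in neurons, was at 0.0970 to 0.230 TPM in differentiated and 0.0854 to 0.15 TPM in undifferentiated libraries. ARC, which encodes a synaptic protein that removes glutamate receptors, was at 1.23, 2.32, 1.5 and 1.07 TPM in differentiated and 1.84, 1.47, 2.46 and 0.823 TPM in undifferentiated libraries, which overlap (-0.05 ± 0.23, limma adjusted p = 0.87). Its annotated transcripts differed. The coding transcript of 2948 bases was at 0.532, 0.472, 0.432 and 0.541 TPM in differentiated and 0.908, 1.05, 1.02 and 0.823 TPM in undifferentiated libraries, without overlap, and was not tested because the gene lies under the minimum once noncoding transcripts are left out. A noncoding transcript of 407 bases held the rest, at 0.530 to 1.84 TPM in differentiated and 0 to 1.44 TPM in undifferentiated libraries.

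The IER genes, small regulators induced by serum, ranged from a small to a clear rise. IER5 was at 18.1, 20.4, 20.0 and 19.8 TPM in differentiated and 12.2, 12.4, 12.8 and 11.9 TPM in undifferentiated libraries (0.63 ± 0.05, limma adjusted p = 2.76e-05). IER2 was at 25.0, 21.0, 25.2 and 26.3 TPM in differentiated and 19.4, 20.6, 20.5 and 20.3 TPM in undifferentiated libraries, with replicate 22 close to the undifferentiated range (0.26 ± 0.07, limma adjusted p = 0.0172). This call was lost with median-of-ratios scaling, quantile normalization, within lane 8, with lane as a covariate and without undifferentiated replicate 17 or differentiated replicate 23 (limma adjusted p = 0.0503 and 0.0504 for these replicates). The coding transcript of 2934 bases held 12.6 ± 0.883 TPM in differentiated and 8.57 ± 0.167 TPM in undifferentiated cells, and that of 2085 bases 10.7 ± 1.31 TPM and 10.7 ± 0.414 TPM. The share of the longer one was 9.36 percentage points higher in differentiated cells (limma adjusted p = 0.049), under the 10 points set for a call. IER3 was at 0.507 to 0.672 TPM in differentiated and 0.0313 to 0.132 TPM in undifferentiated libraries, and higher when fitted without the minimum (limma adjusted p = 0.000117). It overlaps IER3-AS1 on the opposite strand, which averaged 5.53 TPM in differentiated and 2.34 TPM in undifferentiated cells.

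The ZFP36 proteins bind AU-rich elements in messenger RNAs, immediate early ones included, and bring about their decay. ZFP36L2 was at 29.6, 32.2, 29 and 28.7 TPM in differentiated and 14.5, 15.2, 15.9 and 14.9 TPM in undifferentiated libraries (0.94 ± 0.05, limma adjusted p = 2.72e-06). ZFP36L1 was at 7.35, 5.98, 6.20 and 5.94 TPM in differentiated and 2.14, 2.12, 2.40 and 1.94 TPM in undifferentiated libraries (1.22 ± 0.09, limma adjusted p = 1.1e-05). Neither gene overlapped between the groups. ZFP36 (tristetraprolin) was erratic, at 4.35, 1.18, 2.25 and 4.40 TPM in differentiated and 2.10, 0.501, 0.696 and 0 TPM in undifferentiated libraries (1.17 ± 0.41, limma adjusted p = 0.0408). Its groups overlap, and the call was lost without undifferentiated replicate 18, 19 or 20 or differentiated replicate 21, 23 or 24 (limma adjusted p = 0.0648 to 0.101), and also with a pseudocount of 0.1, no filter or quantile normalization (0.0526 to 0.0738). The coding transcript of 1786 bases was at 0, 0, 0.411 and 1.35 TPM in differentiated and 1.93, 0.501, 0.539 and 0 TPM in undifferentiated libraries. The higher level in differentiated cells lay in coding models of 690 and 444 bases, at 1.63 ± 1.02 and 0.978 ± 0.397 TPM there.

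**Figure D4:**
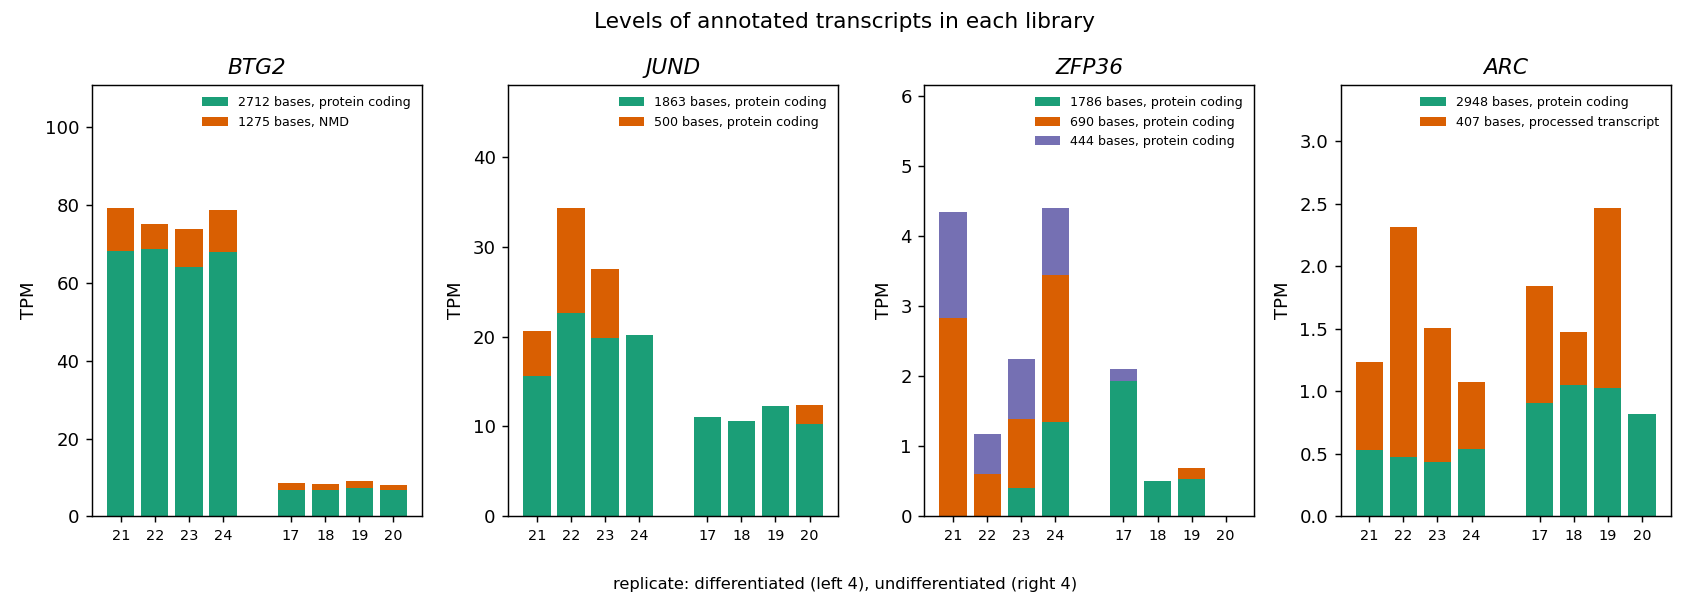
Stacked TPM of the annotated transcripts of BTG2, JUND, ZFP36 and ARC in each library, differentiated replicates 21 to 24 left of undifferentiated replicates 17 to 20. Both BTG2 transcripts are higher in differentiated libraries, a JUND model of 500 bases appears at 11.7 TPM in differentiated replicate 22 and at 0 in replicate 24, and the parts held by the ZFP36 and ARC models differ between libraries.

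In JUND, the transcript of 1863 bases was at 15.6, 22.6, 19.8 and 20.1 TPM in differentiated and 11, 10.6, 12.3 and 10.3 TPM in undifferentiated libraries, without overlap. The model of 500 bases was at 5.03, 11.7, 7.67 and 0 TPM in differentiated and 0, 0, 0 and 2.14 TPM in undifferentiated libraries, and its share did not pass (limma adjusted p = 0.266). Shares were tested for 12 transcripts of 5 members, and 0 were called, against 2.4% of all transcripts tested (limma; 6 had an unadjusted p under 0.05).

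DUSP1, a phosphatase that inactivates MAP kinases and is itself induced by them, fell. It was at 5.48, 6.12, 5.94 and 5.06 TPM in differentiated and 7.90, 8.69, 8.89 and 8.52 TPM in undifferentiated libraries, without overlap (-0.52 ± 0.07, limma adjusted p = 5.2e-04). DUSP2 was at 1.80, 2.30, 2.13 and 1.60 TPM in differentiated and 1.76, 1.45, 1.67 and 1.73 TPM in undifferentiated libraries and did not pass (0.15 ± 0.11, limma adjusted p = 0.282). The cyclic AMP response element TGACGTCA, searched on both strands, occurs in 1.65% of the 35116 promoter windows. Among the 34 windows of members it occurs in 4, each of a different member. It is shown in capitals for these members because DUSP1 fell while JUND, MAFF and ZFP36L1 rose. The stretches, from RefSeq on GRCh38.p14, are chr5:172771302-172771331 on the minus strand, chr19:18281804-18281833 on the minus strand, chr22:38201929-38201958 on the plus strand and chr14:68793450-68793479 on the minus strand, in the order of the lines. The MAFF and ZFP36L1 stretches lie inside the bounds of their genes and overlap an annotated GENCODE 29 exon, so they precede an alternative start and not the outermost one.
DUSP1: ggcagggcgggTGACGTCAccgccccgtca
JUND: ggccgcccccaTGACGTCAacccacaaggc
MAFF: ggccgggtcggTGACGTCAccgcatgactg
ZFP36L1: agtggaatgagTGACGTCAcagccgcgctc
The AP-1 element TGANTCA occurs in 6.57% of all windows and in 0 of the 34 windows of members. The retinoic acid response element, searched only as the direct repeat with a 5-base spacer, occurs in 1 of the 35116 windows and in 0 of those of members. With a match this rare in all windows, its absence from the 34 windows of members cannot show whether members lack such elements. The TATA box TATAAA occurs in 10.7% of all windows and in 6 of the 34 windows of members, in FOS, FOSB, JUNB, ATF3, BTG1 and DUSP1. The match in ATF3 lies 230 to 225 bases before the start, and the others lie between 33 and 25 bases before it.

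Genes that feed the set or act beside it were counted list by list. Of all genes tested, 33.9% rose and 17.4% fell. In the ERK cascade, which carries growth signals to the SRF partners, 8 of 19 measured genes rose and 1 fell (median 0.17). The MSK kinase gene RPS6KA4 (1.18 ± 0.08) and the RSK kinase genes RPS6KA2 (0.80 ± 0.10) and RPS6KA3 (0.77 ± 0.10) changed most. With quantile normalization 5 rose and 3 fell, and with median-of-ratios scaling 3 fell. The number that fell was 3 without differentiated replicate 21, and 0 without undifferentiated replicate 17, 19 or 20 or differentiated replicate 23, with lane as a covariate, within lane 8 and with protein-coding transcripts only. In the CREB branch, 8 of 15 rose and 3 fell (median 0.20), led by CREM, a CREB relative with repressor forms (1.25 ± 0.05), the calcium-dependent kinase CAMK4 (-1.09 ± 0.12) and the CREB coactivator CRTC3 (-0.87 ± 0.16). The number that rose was 4 with quantile normalization or within lane 8, and 5 with median-of-ratios scaling, with no filter, with lane as a covariate, or without undifferentiated replicate 17 or 18 or differentiated replicate 21, 23 or 24. A list of MAP kinase phosphatases other than DUSP1 and DUSP2, together with ERK feedback regulators, mostly rose. Of 12 measured genes on it, 10 rose and 1 fell (median 0.78). With no filter, 2 fell. The receptor kinase inhibitor SPRY1 was the furthest, at 60.96 ± 7.504 TPM in differentiated and 3.88 ± 0.287 TPM in undifferentiated cells, followed by DUSP10 (1.43 ± 0.10) and SPRED3 (1.38 ± 0.18).

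Of 26 measured among 33 other early response genes, 20 rose and 5 fell (median 0.77), and 3 fell within lane 8 or among genes averaging 5 TPM or more. CCN1, already counted with the SRF and MRTF targets, is among those that rose. PLK2, a kinase induced by serum and synaptic activity, was at 89.6 ± 2.58 TPM in differentiated and 5.385 ± 0.287 TPM in undifferentiated cells, and SOCS3, a cytokine signalling inhibitor, at 43.8 ± 3.598 TPM and 3.33 ± 0.181 TPM. MYC fell by 2.99 on the log2 scale. Of 12 measured late response genes of neuronal activity, 6 rose and 4 fell (median 0.32), beside 33.9% and 17.4% of all genes. The G protein regulator RGS2 (4.04 ± 0.06), the granule protein SCG2 (2.73 ± 0.06) and the semaphorin receptor NRP1 (2.69 ± 0.15) led. Without undifferentiated replicate 17, 18, 19 or 20, within lane 8, with lane as a covariate or with no filter, 2 fell.

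Partners of BTG2 and of the ZFP36 proteins in RNA decay were counted as well. Of 17 TOB and CCR4-NOT genes, 3 rose and 3 fell (median -0.04), beside 33.9% and 17.4% of all genes. Those that rose were the related antiproliferative genes BTG3 (0.60 ± 0.06), TOB1 (0.41 ± 0.06) and TOB2 (0.37 ± 0.08), and the deadenylase CNOT6L fell (-1.10 ± 0.35), a call lost in several alternatives (highest limma adjusted p = 0.144). The number that fell was 7 with median-of-ratios scaling or quantile normalization, 6 with protein-coding transcripts only or without differentiated replicate 21, 1 without undifferentiated replicate 17, 18 or 20 or with lane as a covariate, and 0 within lane 8. Of 8 other AU-rich element binding proteins, 1 rose (2 without differentiated replicate 22 or with protein-coding transcripts only) and 5 fell (median -0.28), with ELAVL2 (-0.98 ± 0.12), ELAVL3 (-0.81 ± 0.08) and HNRNPD (-0.47 ± 0.08) the furthest. Heat shock genes, which respond to handling, summed to 2750 to 3250 TPM in differentiated and 4490 to 4550 TPM in undifferentiated cells. Of 10, 5 rose and 5 fell (2 rose within lane 8 and under quantile or median-of-ratios scaling), with BAG3 at 0.80 ± 0.11, HSP90AA1 at -0.76 ± 0.12 and HSPD1 at -0.72 ± 0.04, and the part of handling in the levels of the set was not tested.

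**Figure D5:**
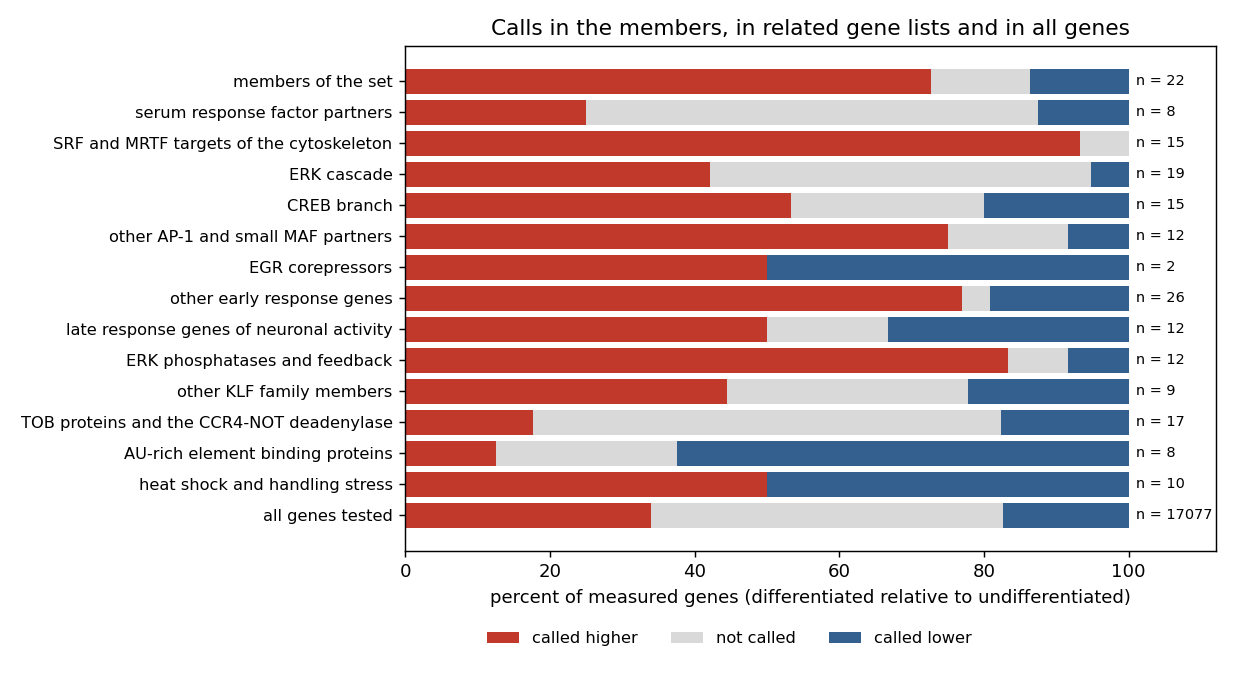
Percent of measured genes called higher, not called and called lower in differentiated relative to undifferentiated cells, for the members, for related gene lists and for all 17077 genes tested; n is the number of genes measured. SRF and MRTF targets (14 of 15) hold the largest part called higher among these lists. MAP kinase phosphatases and ERK feedback genes (10 of 12, labelled ERK phosphatases and feedback) come next. AU-rich element binding proteins (5 of 8) hold the largest part called lower.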

How the data were processed

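RNA of 8 SH-SY5Y libraries was measured, 4 differentiated and 4 undifferentiated, grouped by their titles. The authors deposited TPM for 194993 Ensembl transcripts; FastQC 0.11.2, Salmon and GRCh37 are named, per the submitters' processing notes, and no further setting. Depth is unknown. Transcripts were matched by identifier to GENCODE 29 (GRCh38), which took 92.8% of them and from 93.2% to 95.0% of each library's TPM, and summed per gene. IER3 lies in the HLA region, and copies on alternate haplotypes were not used here.

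The 17077 genes averaging at least 1 TPM entered a two-sided limma 3.58.1 fit (R 4.3.3, eBayes with trend, group only) on log2(TPM+1), and a call needed a Benjamini-Hochberg adjusted p under 0.05 over all of them. Such fold changes understate low genes. Transcript shares were tested with limma on the arcsine square root, in genes of 5 TPM or more per group and transcripts of 10% to 90%, and a call needed 10 points. Both steps were tested on simulated data. All members and, per list, up to 3 called genes with the largest change are named; CNN1, MYL9, TOB2 and the markers at or near 0 were named after their values were seen. Members and lists were chosen with earlier results of these data known. Promoters are the 250 bases before RefSeq starts (GRCh38.p14). Alternatives covered pseudocount, filter, scaling, trend, coding transcripts, lane, permutation and each replicate left out. Python 3.11.15 with pandas 2.3.3 handled tables.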

Additional observations from a re-analysis of the deposited data

How the results depend on the processing

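Scaling moved the centre of the data: over all genes the median was 0.10 unscaled, -0.01 after median-of-ratios and -0.07 after quantile scaling. Of all genes, 5791 rose and 2970 fell unscaled, 4743 and 4310 after median-of-ratios, and 4173 and 5098 after quantile normalization; within lane 8, 4474 rose and 1886 fell. Of the members, 16 rose and 3 fell, and the counts were 14 and 3, 13 and 3, and 14 and 2 under the same alternatives. Leaving out one replicate gave 14 to 16 rises and 3 falls of members, and 5217 to 6616 rises and 2507 to 3379 falls of all genes. The exact two-sided permutation test over the 70 splits cannot go below p = 0.0286, called 0 genes and 0 members higher or lower after adjustment (smallest adjusted p = 0.0576), and gave 8475 genes and 17 members an unadjusted p under 0.05. Of the 19 called members, 14 kept their call in each of the 18 other alternatives that tested them, and JUN, IER2, BTG1, NR4A1 and ZFP36 did not; none of the 19 changed sign. Signs turned only in members that were not called, SRF with median-of-ratios scaling (-0.02) and quantile normalization (-0.11), DUSP2 with quantile normalization (-0.03), and ARC without one library (-0.219 to 0.089). The NR4A1 transcript of 600 bases, at -0.53 points of share, was at 1.26 points within lane 8 and between -2.46 and 2.41 points without one library. The causes were not tested. No paired analysis was possible because the groups share no replicate numbers.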
